A study of Homo sapiens with 6 samples.

Results

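The nuclear genes that encode subunits of the mitochondrial oxidative phosphorylation (OXPHOS) system were examined in SW480 cells, an established human colorectal cancer line, with and without knockdown of CNOT7, a deadenylase subunit of the CCR4-NOT complex that shortens the poly(A) tails of mRNAs. Members were protein-coding genes outside the mitochondrial chromosome whose symbols name a subunit of complexes I to V (NDUFA, NDUFB, NDUFC, NDUFS and NDUFV, SDHA to SDHD, UQCR and CYC1, COX5 to COX8, and ATP5 genes). The rule found 89 of the 58735 genes in the count table, of which 36 belonged to complex I, 4 to complex II, 10 to complex III, 17 to complex IV and 20 to complex V, while 2 were readthrough genes. NDUFA4 and its paralog NDUFA4L2 were placed with complex IV. The symbols COX4I1, COX4I2, NDUFAB1 and CYCS lie outside the rule and are given apart.

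RNA sequencing covered 3 libraries of CNOT7 knockdown cells (sh) and 3 of control cells labelled Nc, all from SW480 and all labelled as having had no treatment. The study used stable lentiviral short hairpin RNA lines and describes a pair of CNOT7 hairpins, but the labels do not say which hairpin each library carried, nor whether the 3 libraries of a group came from separate cultures, so p-values measure only the spread between these libraries, which may be technical. Library totals ranged from 23788451 to 29104872 counts. CNOT7 itself stood at 169.1, 191.1 and 175.8 CPM (counts scaled to library size with TMM factors) in control replicates 1 to 3 and at 43.4, 47.2 and 38.6 CPM in knockdown replicates 1 to 3, a log2 fold change of -2.05 (SE 0.073, edgeR Benjamini-Hochberg adjusted p = 2.64e-12). Of 8 colorectal epithelial markers, 7 were expressed at tested levels (EPCAM, CDX2, VIL1, CDH1, KRT8, KRT18 and KRT19) and CDX1 was near 0. VIL1 and CDH1 were higher in knockdown cells (log2 fold changes 0.72 and 0.51) and KRT8 and KRT19 lower (-0.15 and -0.18), and their part in the results was not tested. Summed fibroblast markers stayed between 7.40 and 9.78 CPM, nearly all of it COL1A1, with COL3A1 and DCN at 0 in every library, and the 5 leukocyte markers summed to less than 1 CPM in each library. Endothelial markers summed to between 1.68 and 2.34 CPM in control and between 2.75 and 3.48 CPM in knockdown libraries, mostly VWF, which was not called (edgeR adjusted p = 0.0936), and their part in the results was not tested.

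Oxidative phosphorylation couples electron flow to ATP synthesis. Complex I accepts electrons from NADH and complex II from succinate, ubiquinol hands them to complex III, cytochrome c carries them to complex IV, and complex V uses the resulting proton gradient to make ATP. Most subunits are encoded in the nucleus and imported, while a small set of core membrane subunits is encoded by mitochondrial DNA. Several nuclear subunits have tissue-specific isoforms, such as the heart and muscle forms COX6A2 and COX7A1 and the testis forms COX6B2, COX7B2 and COX8C.

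The nuclear OXPHOS subunits differed little between knockdown and control cells. Of the 82 members with enough counts for testing, 8 were lower and 1 was higher in knockdown cells by edgeR's quasi-likelihood test at an adjusted p under 0.05. The called share of 11.0% compared with 25.2% of all 17574 tested genes and 29.0% of the 13683 tested protein-coding genes. By direction, 11.9% of all tested genes were lower and 13.3% were higher. Most members leaned the same way by a small amount: 61 of 82 had a log2 fold change below 0, and the median was -0.074, against 0.0039 over all tested genes and -0.0086 over protein-coding genes. The standard error of a member was itself of that size, with a median of 0.076 on the log2 scale (0.098 over all tested genes). The 3 control values lay wholly above the 3 knockdown values for 15 members and wholly below for 1, together 19.5% of the tested members, whereas such separation was seen for 38.8% of all tested genes and, with knockdown lower, for 18.2%. In bulk RNA, fewer cells expressing a gene and less RNA per cell cannot be told apart, and each value is a share of its library.

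Individual libraries carried much of the count. Without control replicate 3, 1 member was called lower (NDUFA6), and without control replicate 1 or knockdown replicate 1 there were 4, whereas without control replicate 2 there were 19. The same libraries stand out in the levels: the median member lay 0.033 (log2) above the control mean in control replicate 3 and 0.071 below it in control replicate 2, while the medians in knockdown replicates 1, 2 and 3 were -0.098, -0.077 and -0.049. Control replicate 3 held the highest value of the 6 libraries for 32 of 82 members. Scaling by library totals alone left 2 lower calls, and omitting the low-count filter gave 13, while the single higher call remained under all of these settings. The share of all tested genes called lower moved less. Without control replicates 1, 2 and 3 it was 8.89%, 11.2% and 7.56%, and without knockdown replicate 1 it was 8.32%. It was 12.4% without knockdown replicate 2 and 8.22% with library totals alone. Without the low-count filter, 2342 genes were lower, against 2095 as reported, so the counts over all genes and over members were both higher. As a share this was 6.79% of 34509 tested genes, below the 11.9% of 17574 as reported.

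**Figure D1:**
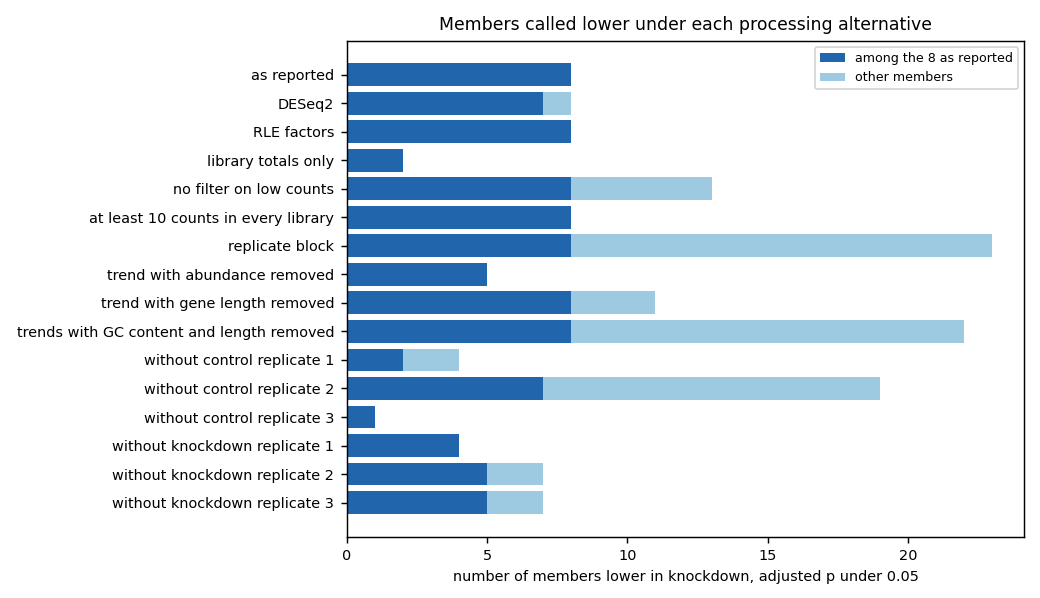
Number of members called lower in knockdown (horizontal axis, from 0) under each of 15 processing alternatives and as reported, with dark bars for members among the 8 reported and light bars for others. The count runs from 1 without control replicate 3 to 23 with replicate number as a block, a pairing that the labels do not give. Of all tested genes, 7.56% and 18.8% were lower in these settings.

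**Figure D2:**
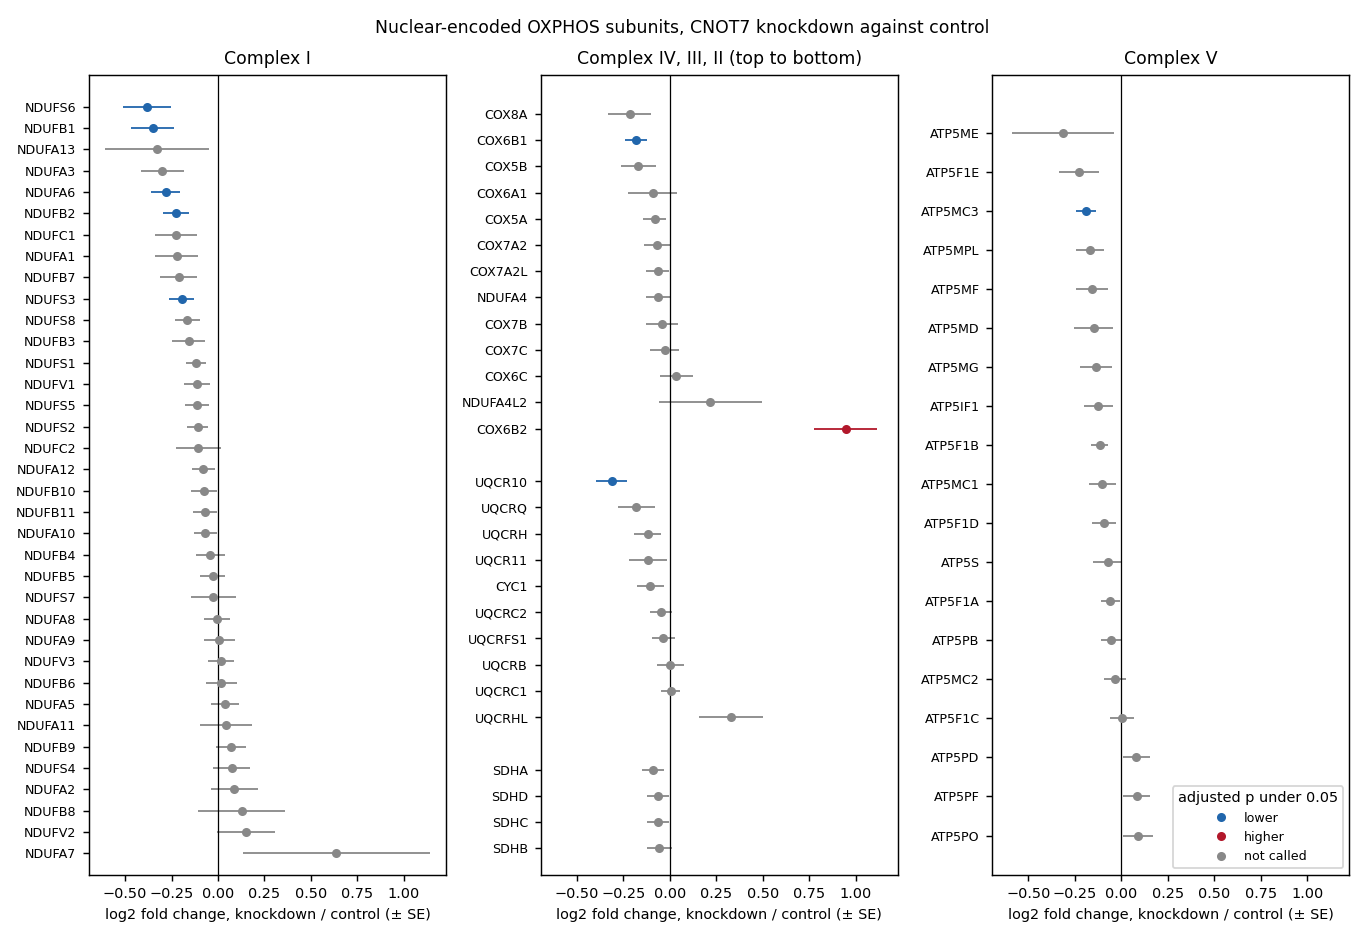
Log2 fold change (knockdown against control, horizontal axis) with its standard error for each of the 82 tested members, grouped by complex, with blue for the 8 called lower, red for the 1 called higher and grey for the rest. Most points sit just left of 0, and COX6B2 at 0.95 lies apart on the right.

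Complex I (NADH:ubiquinone oxidoreductase) held 5 of the 8 lower calls among its 36 tested members, a share of 13.9% beside 11.9% of all tested genes, with a median log2 fold change of -0.076. Its summed level was 1578, 1505 and 1604 CPM in the control libraries and 1440, 1450 and 1492 CPM in the knockdown libraries, so the knockdown mean was 93.5% of control and the groups did not overlap. The same sum over all protein-coding genes was 96.2% of control (982800 to 994000 CPM against 944300 to 962700 CPM). Over all 58735 genes it was 96.8%, and both sums were also without overlap. Totals this broad are largely set by the TMM factors (0.979 to 0.990 in control and 1.004 to 1.025 in knockdown libraries). They are therefore no independent background, and whether separate sums are particular to a complex was not tested. NDUFS6, an accessory zinc-binding subunit, had 38.4, 26.3 and 38.0 CPM in control replicates 1 to 3 and 28.0, 21.6 and 29.2 CPM in knockdown replicates 1 to 3. Control replicate 2 fell below 2 of the knockdown libraries, so the groups overlapped even though the fitted log2 fold change of -0.38 was the most negative of all members (SE 0.127, edgeR adjusted p = 0.0348). DESeq2 did not call NDUFS6 (adjusted p = 0.211), and its call was also lost without control replicate 1 or 3 or knockdown replicate 1 or 2, at edgeR adjusted p from 0.0618 to 0.152. Scaling by library totals alone lost the NDUFS6 call too. NDUFB1, an accessory subunit of the membrane arm, had 13.5, 13.9 and 18.2 CPM in control and 12.7, 11.6 and 11.4 CPM in knockdown cells (log2 fold change -0.35, SE 0.115, edgeR adjusted p = 0.0323). All control values of NDUFB1 exceeded all knockdown values, with control replicate 3 well above the other controls, and without that library the log2 fold change was -0.20 and the edgeR adjusted p = 0.247. Leaving out knockdown replicate 2 or 3 gave an edgeR adjusted p of 0.052 or 0.071 for NDUFB1. Its call was also lost with library totals alone.

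NDUFA6 is a LYR-motif accessory subunit that anchors the mitochondrial acyl carrier protein in complex I. Its levels were 35.6, 31.0 and 31.2 CPM in control and 28.2, 25.5 and 26.8 CPM in knockdown cells, with no overlap (log2 fold change -0.28, SE 0.079, edgeR adjusted p = 0.0146). The call held in 14 of 15 alternatives and was lost without control replicate 1 (edgeR adjusted p = 0.0975). The acyl carrier protein itself, NDUFAB1, is not a member by its symbol. It measured 50.3, 50.3 and 53.1 CPM in control and 41.7, 42.2 and 41.4 CPM in knockdown cells (log2 fold change -0.30, SE 0.064, edgeR adjusted p = 0.00257) and was called in all 15 alternatives. NDUFB9, the other LYR-motif subunit that binds it, ranged from 43.6 to 49.3 CPM in control and from 43.4 to 53.4 CPM in knockdown cells, with overlapping groups and a log2 fold change of 0.07 (edgeR adjusted p = 0.577).

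NDUFB2, another accessory subunit of the membrane arm, had 42.5, 40.7 and 44.9 CPM in control and 37.0, 36.4 and 36.1 CPM in knockdown cells (log2 fold change -0.23, SE 0.068, edgeR adjusted p = 0.0215). Its groups were separate, but omitting control replicate 1 or 3 or knockdown replicate 1 or 3 moved the edgeR adjusted p to between 0.0502 and 0.133. Scaling by library totals alone lost the call as well. The exons of NDUFB2 overlap annotated exons of BRAF on the opposite strand over 35.1% of their bases, and the strand setting of the counting is not given in the sources used here, so reads from the pair may not be told apart. NDUFS3, a core subunit near the ubiquinone-binding site, had 56.0, 56.8 and 51.9 CPM in control and 45.7, 49.6 and 48.4 CPM in knockdown cells (log2 fold change -0.20, SE 0.066, edgeR adjusted p = 0.0389). The groups of NDUFS3 did not overlap, yet its call was lost when any control replicate or knockdown replicate 1 or 3 was left out, with edgeR adjusted p from 0.0513 to 0.147. With library totals alone, or with a trend with abundance removed, the NDUFS3 call was lost too. Same-strand exons of PTPMT1 cover 19.6% of the exonic bases of NDUFS3 and none of its coding bases.

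The other core subunits did not pass the test. NDUFS1, the largest iron-sulfur subunit of complex I, had 189.0, 194.5 and 201.9 CPM in control and 180.1, 183.8 and 175.6 CPM in knockdown cells, without overlap (log2 fold change -0.12, SE 0.052, edgeR adjusted p = 0.112). NDUFV1, which binds NADH and the flavin, had 164.8, 133.1 and 153.5 CPM in control and 141.4, 131.9 and 143.7 CPM in knockdown cells, where control replicate 2 lay within the knockdown range (log2 fold change -0.12, SE 0.069, edgeR adjusted p = 0.249). It was called without control replicate 2 (edgeR adjusted p = 0.0253). Over the 7 core subunits the median log2 fold change was -0.12, and over the 29 accessory subunits it was -0.069.

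Complex II, the succinate dehydrogenase shared with the tricarboxylic acid cycle, had no called member by edgeR or DESeq2, and none of its 4 genes reached an unadjusted p under 0.05 in edgeR (0 of 4). The flavoprotein SDHA measured 223.8, 202.5 and 216.1 CPM in control and 202.1, 189.3 and 212.6 CPM in knockdown cells (log2 fold change -0.089, edgeR adjusted p = 0.295). The log2 fold changes of the iron-sulfur subunit SDHB and the membrane anchors SDHC and SDHD were -0.055, -0.064 and -0.065, with standard errors between 0.058 and 0.067. Each of the 4 genes had overlapping groups. Their sum was 481.0, 479.2 and 476.7 CPM in control and 451.9, 449.0 and 464.4 CPM in knockdown cells, or 95.0% of control. The sum of all protein-coding genes, largely set by the TMM factors, was 96.2% and separate too.

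UQCR10 was the single called member of complex III (ubiquinol:cytochrome c oxidoreductase). This small membrane subunit measured 35.2, 32.8 and 39.3 CPM in control and 28.3, 27.4 and 30.7 CPM in knockdown cells (log2 fold change -0.31, SE 0.081, edgeR adjusted p = 0.0088). The groups were separate, no annotated exon of another gene overlaps its exons, and the call held in 14 of 15 alternatives, the exception being without control replicate 3 (log2 fold change -0.24, edgeR adjusted p = 0.0818). The electron carriers and core proteins were not called. UQCRC1, a core protein and the most abundant member of complex III per kilobase, had 254.0, 242.4 and 266.1 CPM in control and 253.4, 253.0 and 258.6 CPM in knockdown cells (log2 fold change 0.0048, SE 0.052), a value within its error of 0 and of either sign across the alternatives. UQCRFS1, the Rieske iron-sulfur protein, and CYC1, cytochrome c1, had overlapping groups and log2 fold changes of -0.034 (SE 0.060) and -0.10 (SE 0.072), with edgeR adjusted p of 0.740 and 0.317.

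UQCRQ showed how 1 library can set a member's fold change. This ubiquinone-binding small subunit had 64.6 and 62.0 CPM in control replicates 1 and 2 but 88.2 CPM in control replicate 3, against 64.2, 63.8 and 61.9 CPM in knockdown cells. Its log2 fold change was -0.18 (edgeR adjusted p = 0.201), and the least negative value on leaving out a library was -0.0034. ATP5F1E of complex V had the same shape, with 61.1, 58.5 and 86.9 CPM in control and 59.0, 61.1 and 56.5 CPM in knockdown cells (log2 fold change -0.23, edgeR adjusted p = 0.137). Both of these members were chosen for mention after their values were seen.

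**Figure D3:**
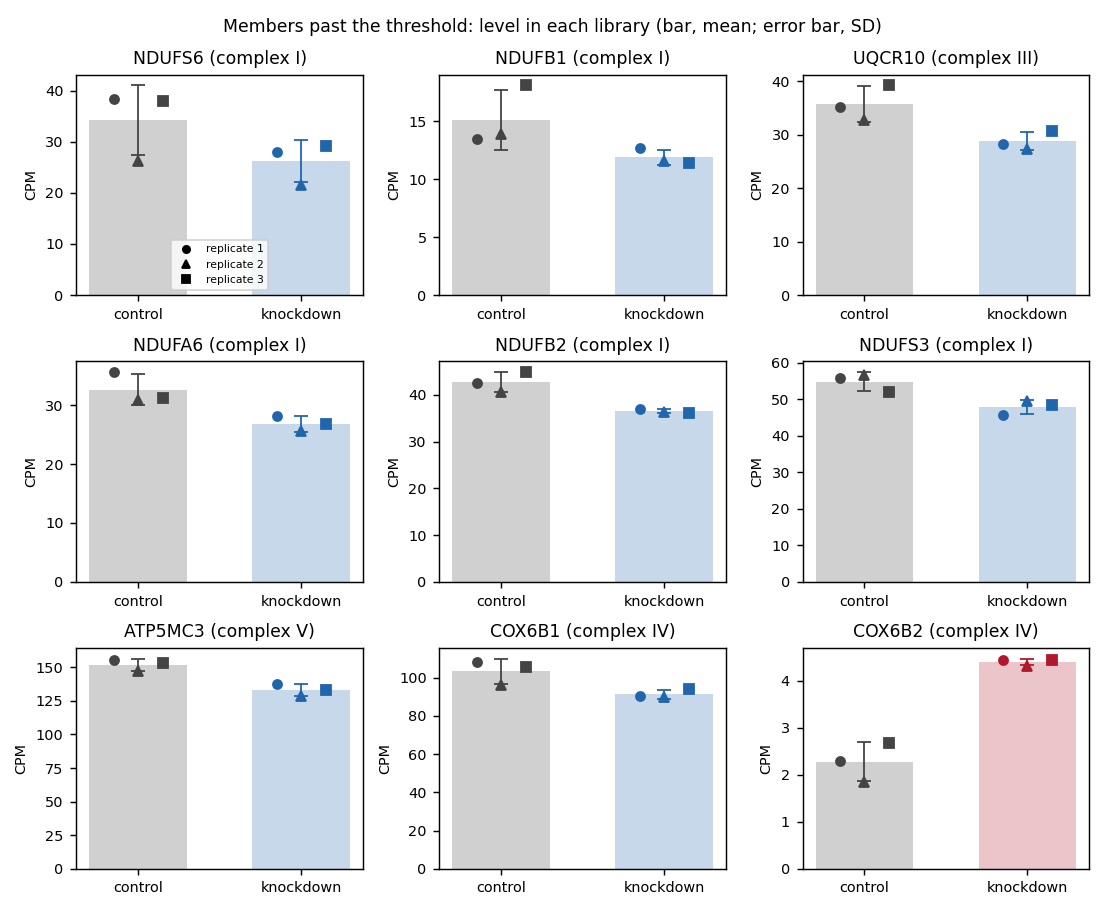
Level in CPM (vertical axis, from 0) of the 9 called members in each library, with bars for the mean of 3 libraries, error bars for the SD and a symbol for each replicate number. NDUFS6 shows overlapping groups, and COX6B2 rises from a mean of 2.27 to 4.39 CPM.

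Complex IV (cytochrome c oxidase) held 1 call in each direction, and the called genes are paralogs. COX6B1, the ubiquitous form of a subunit that faces the intermembrane space, had 108.4, 96.1 and 105.9 CPM in control and 90.3, 89.8 and 93.9 CPM in knockdown cells. All control values were above all knockdown values (log2 fold change -0.18, SE 0.060, edgeR adjusted p = 0.0367). The call was lost without control replicate 1 or 3 or knockdown replicate 1 or 2 (edgeR adjusted p from 0.0525 to 0.156), with the log2 fold change remaining between -0.23 and -0.15. Scaling by library totals alone and removing a trend with abundance also lost the COX6B1 call. COX6B2, known as the testis form, had 2.30, 1.85 and 2.67 CPM in control and 4.44, 4.31 and 4.43 CPM in knockdown cells, corresponding to 59, 43 and 67 counts against 125, 119 and 132. The groups were far apart relative to their spread (2.27 ± 0.41 against 4.39 ± 0.070 CPM, mean ± SD, n = 3 each), the log2 fold change was 0.95 (SE 0.170, edgeR adjusted p = 0.000529), and the call held in all 15 alternatives. Per kilobase of exon, COX6B2 rose from 0.60 to 1.15 CPM, while COX6B1 went from 110.6 to 97.6 CPM. The lengths include exonic bases shared with other genes.

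The COX6B2 count rests on a shared locus. Its exons (chromosome 19, positions 55349306 to 55354814, minus strand, GRCh38) share 30.9% of their bases, including 100% of the coding bases, with same-strand exons of the annotated gene AC020922.1, which had 0 counts in each of the 6 libraries. The readthrough gene NDUFC2-KCTD14, with 100% of its exonic bases in same-strand exons of other genes, also had 0 counts, while NDUFC2 had 204 to 264. How the counting treated reads that hit more than 1 gene is not given in the sources used here. Whether the COX6B2 counts come only from its unshared bases, and which part of its transcript gained reads, was not tested.

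The remaining tissue-specific isoforms stayed at or near 0 in both groups. COX6A2 had 0 counts in all 6 libraries, which allows up to 3 counts per library, COX7B2 had 0 to 3 counts and COX8C 0 to 3 counts per library, and COX7A1 had 5 to 13 counts, so none of these was tested. Their widely expressed counterparts were present in every library: COX6A1 ranged from 22.3 to 32.1 CPM in control and from 19.8 to 28.8 CPM in knockdown cells, COX7A2 from 37.7 to 40.9 and 35.9 to 40.0 CPM, COX7B from 55.8 to 68.3 and 54.8 to 66.9 CPM, and COX8A from 60.8 to 81.7 and 48.5 to 73.4 CPM. Each of these 4 genes had overlapping groups and was not called, with log2 fold changes of -0.091, -0.068, -0.042 and -0.22. COX8A was called without control replicate 2 (edgeR adjusted p = 0.0312) and without knockdown replicate 3 (edgeR adjusted p = 0.0165). COX5A, a matrix-side subunit, and COX7A2L, which takes part in assembling respiratory supercomplexes, had log2 fold changes of -0.081 (edgeR adjusted p = 0.383) and -0.064 (edgeR adjusted p = 0.496). NDUFA4 ranged from 140.5 to 159.9 CPM in control and from 134.0 to 151.8 CPM in knockdown cells, whereas its paralog NDUFA4L2, a hypoxia-induced gene, stayed between 0.90 and 1.34 CPM in all libraries, and neither was called. COX4I1, the main form of a core-binding subunit that the rule leaves out, had 135.8, 127.7 and 134.7 CPM in control and 123.3, 116.2 and 125.0 CPM in knockdown cells (log2 fold change -0.13, edgeR adjusted p = 0.107), and COX4I2 was untested.

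Complex V (ATP synthase) had a median log2 fold change of -0.10 over 19 tested members, with 1 lower call. Its sum was 2438, 2406 and 2455 CPM in control and 2247, 2324 and 2259 CPM in knockdown cells, 93.6% of control, and ATP5F1B made up a large share of it. ATP5F1B, the catalytic beta subunit, was the most abundant member per kilobase and had 1072, 1062 and 1060 CPM in control and 968.5, 1016 and 960.9 CPM in knockdown cells. The 3 control values spanned a narrow range above all knockdown values, yet the gene missed the threshold (log2 fold change -0.12, SE 0.046, edgeR adjusted p = 0.0705), while DESeq2 gave an adjusted p of 0.049. It was also called without knockdown replicate 2 (edgeR adjusted p = 0.0223). The alpha subunit ATP5F1A ranged from 268.7 to 281.9 CPM in control and from 256.7 to 271.8 CPM in knockdown cells (log2 fold change -0.060, edgeR adjusted p = 0.427).

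The c-ring of ATP synthase is built from copies of the same mature protein, encoded by ATP5MC1, ATP5MC2 and ATP5MC3. ATP5MC3 was called lower, with 155.8, 147.0 and 152.9 CPM in control and 137.5, 128.4 and 133.2 CPM in knockdown cells and no overlap (log2 fold change -0.19, SE 0.054, edgeR adjusted p = 0.0154). Without control replicate 1 or 3 the edgeR adjusted p was 0.0668 or 0.072. The ATP5MC3 call was also lost with library totals alone and when a trend with abundance was removed. ATP5MC1 had 33.5, 35.0 and 33.7 CPM in control and 32.0, 29.4 and 33.7 CPM in knockdown cells, and ATP5MC2 had 124.8, 117.1 and 130.1 against 118.8, 117.9 and 126.2 CPM. Both had overlapping groups and log2 fold changes of -0.10 (SE 0.074) and -0.036 (SE 0.058), and the difference between the 3 genes was not tested. The peripheral stalk leaned the other way in 3 of its 4 subunits: ATP5PD, ATP5PF and ATP5PO had log2 fold changes of 0.081, 0.081 and 0.089, and ATP5PB of -0.054, each with overlapping groups and no call. ATP5IF1, the natural inhibitor of ATP hydrolysis by the enzyme, had 28.1, 26.4 and 27.5 CPM in control and 23.4, 25.4 and 26.4 CPM in knockdown cells (log2 fold change -0.12, edgeR adjusted p = 0.267).

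**Figure D4:**
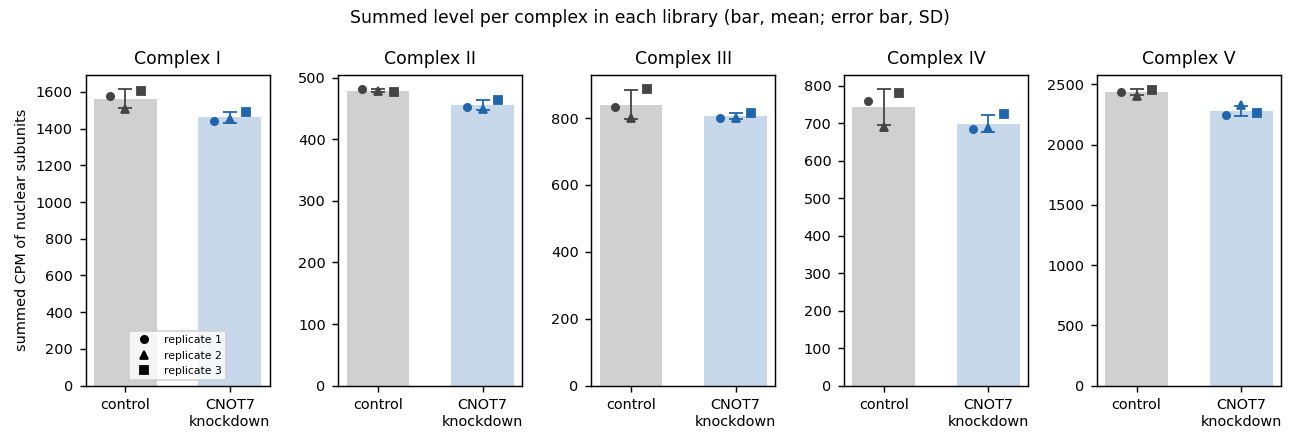
Summed CPM of the nuclear subunits of each complex (vertical axes, from 0) in the 3 control and 3 knockdown libraries, with bars for the mean, error bars for the SD and symbols for replicate numbers. Knockdown means were 93.5%, 95.0%, 95.9%, 94.0% and 93.6% of control for complexes I to V. The sum of all protein-coding genes, at 96.2%, is largely set by the TMM factors. Control replicate 2 reached the knockdown values in complex III (799.6 against 799.8 to 815.1 CPM) and complex IV (690.3 against 685.6 to 724.4 CPM).

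Paralogs and readthrough genes needed separate care. UQCRHL, an intronless copy of UQCRH, had 54 to 82 counts per control library and 92 to 105 per knockdown library (log2 fold change 0.33, SE 0.173, edgeR adjusted p = 0.181), and 8.96% of its 50-base stretches occur in other annotated transcripts, UQCRH among them. UQCRH, the hinge protein of complex III, had a log2 fold change of -0.12 (edgeR adjusted p = 0.262) and was called without control replicate 2 (edgeR adjusted p = 0.0416). The readthrough gene NDUFC2-KCTD14 had 0 counts in all 6 libraries, and ATP5MF-PTCD1 was below the filter in all. ATP5MGL, a paralog of ATP5MG, had 0 to 3 counts per library.

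Levels of the members spanned a wide range per kilobase of exon. In control cells ATP5F1B stood first at 458.5 CPM per kilobase, followed by COX8A at 140.6, COX6B1 at 110.6 and UQCRC1 at 78.5, and NDUFA7 came last of the tested members at 0.27. The lowest values fall largely on members whose coding exons are also annotated to another gene. For 12 tested members at least 50% of coding bases lay in a same-strand exon of another gene, and their median control level was 2.91 CPM per kilobase, against 22.0 for the other 70. The 12 include NDUFA7, NDUFA9, NDUFA13, NDUFB8, NDUFC2 and NDUFV2 of complex I. NDUFV2, a core subunit present in equal number with NDUFV1 in the assembled complex, had 4.05, 3.35 and 4.11 CPM in control cells and 4.79, 3.99 and 4.03 CPM in knockdown cells, far below the values of NDUFV1 given above, and 84.7% of its coding bases are shared. Of the 12, 1 was called (COX6B2), and of the other 70, 8 were called. Over all tested genes, 25.2% were called in either direction, and the difference between the counts of called members was not tested. The effect of the shared bases on the levels and fold changes was not tested.

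**Figure D5:**
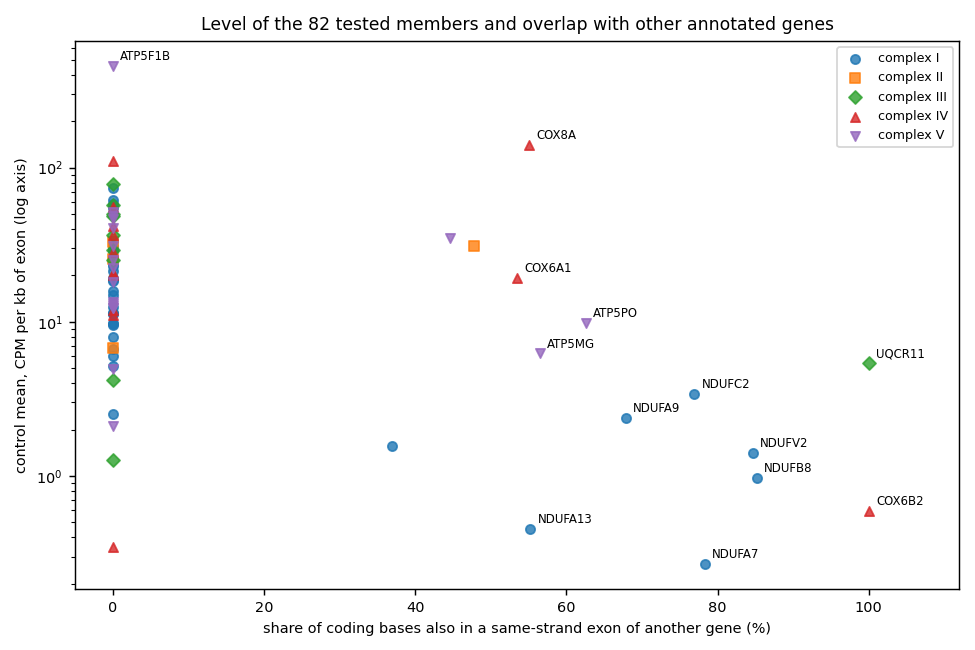
Control level in CPM per kilobase of exon (vertical log axis) of the 82 tested members against the share of coding bases that also lie in a same-strand exon of another annotated gene (horizontal axis, percent), with symbols by complex. Members at or above 50% are named and mostly lie below 10 CPM per kilobase, with COX8A at 140.6 and COX6A1 as exceptions.

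Members with shorter coding sequences tended to lie lower. The 41 members at or under the median coding length of 430.5 bases had a median log2 fold change of -0.12, with 5 called lower and 1 higher. The 41 longer members had a median of -0.060, with 3 called lower. Over all tested genes 11.9% were lower and 13.3% higher, and the difference between these counts was not tested. Across the 82 genes, which share libraries and are not independent, Spearman's rho between log2 fold change and coding length was 0.29, and between log2 fold change and control CPM it was -0.13. Removing a trend with gene length from the counts gave 11 lower members, with 15.7% of all tested genes lower. Removing trends with length and GC content together, an alternative chosen after seeing the data, gave 22 lower members, and the share of all tested genes called lower was then 22.9%.

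Upstream sequences are shown for UQCR10 and COX6B1, whose exons share no base with another annotated gene, so that their counts are not divided. The RefSeq windows (GRCh38.p14) are given in the gene's direction, and only bases outside annotated untranslated regions are printed. For UQCR10 this is the whole stretch before the start, chr22:29767119-29767368 on the plus strand, and for COX6B1 the part farthest from the start, chr19:35648073-35648222 on the plus strand. Neither stretch holds any of the 3 motifs described next.
UQCR10: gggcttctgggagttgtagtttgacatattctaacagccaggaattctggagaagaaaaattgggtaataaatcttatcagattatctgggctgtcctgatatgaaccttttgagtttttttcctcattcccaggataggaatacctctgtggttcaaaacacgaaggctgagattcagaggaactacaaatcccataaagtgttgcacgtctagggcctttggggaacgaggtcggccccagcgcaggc
COX6B1: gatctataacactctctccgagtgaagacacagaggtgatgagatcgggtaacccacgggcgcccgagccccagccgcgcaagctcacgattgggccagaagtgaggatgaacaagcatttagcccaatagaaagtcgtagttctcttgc

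Promoters of respiratory genes are known for sites of NRF1, of ETS factors such as GABP, and of YY1. RefSeq windows from 250 bases before to 50 bases after the start were found for 67 of the 89 members, and the letters of each motif were searched on both strands. The NRF1 letters GCGCATGCG occurred in 14.9% of the 67 and in 2.1% of all 27305 promoters, the ETS letters CCGGAAGT in 13.4% and 4.44%, and the YY1 letters AAGATGGCG in 11.9% and 1.85%. Of the 7 lower members with a window, NDUFS6 held the NRF1 letters and NDUFA6 the YY1 letters, and none held the ETS letters. Relative to the start, the letters lie at -46 to -38 in NDUFS6 and at 25 to 33, after the start, in NDUFA6. Annotated untranslated regions were not left out here. These are the matched sites with 10 bases on each side and the motif in capitals, at chr5:1801351-1801379 on the plus strand for NDUFS6 and at chr22:42090729-42090757 on the minus strand for NDUFA6.
NDUFS6: cagaagccgtGCGCATGCGttagcgctaa
NDUFA6: atgctttggcAAGATGGCGgggagcggcg

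Among the regulators of mitochondrial biogenesis, 2 of 15 were lower (13.3%, beside 11.9% of all tested genes), the median log2 fold change was -0.059, and 7 of 15 lay above 0. GABPB1, a subunit of the ETS factor GABP, had 25.4, 28.9 and 27.6 CPM in control and 22.4, 23.2 and 20.0 CPM in knockdown cells (log2 fold change -0.32, SE 0.084, edgeR adjusted p = 0.0096). TFAM, which packages and transcribes mitochondrial DNA, had 133.7, 141.0 and 133.8 CPM in control and 113.9, 126.4 and 112.9 CPM in knockdown cells (log2 fold change -0.21, SE 0.059, edgeR adjusted p = 0.0146). Groups of both genes were separate. Of the 15 regulators, 4 had separate groups (26.7%, beside 38.8% of all tested genes). NRF1 had 20.7, 21.5 and 21.1 CPM in control and 17.7, 19.3 and 17.9 CPM in knockdown cells, also without overlap, and missed the threshold (log2 fold change -0.21, edgeR adjusted p = 0.0749). GABPA, the DNA-binding partner of GABPB1, had a log2 fold change of 0.12 (SE 0.074, edgeR adjusted p = 0.257). The coactivator PPARGC1A, under 1 CPM in every library, had a log2 fold change of 0.92 (SE 0.438, edgeR adjusted p = 0.14). GABPB1 was called in all 15 alternatives and TFAM in 12, its call being lost without knockdown replicate 1 or 3 among others (edgeR adjusted p at most 0.0714).

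The subunits encoded by mitochondrial DNA were 13 genes, all with log2 fold changes below 0 and a median of -0.087, and 2 of them were called lower (15.4%, beside 11.9% of all tested genes). MT-CO3, a core subunit of complex IV, had 5291, 5539 and 5715 CPM in control and 4571, 4828 and 4390 CPM in knockdown cells (log2 fold change -0.26, SE 0.047, edgeR adjusted p = 0.000493). MT-ND1 of complex I had 2257, 2405 and 2345 CPM in control and 2010, 2059 and 1875 CPM in knockdown cells (log2 fold change -0.24, SE 0.048, edgeR adjusted p = 0.00145). Control and knockdown values were separate for these 2 genes (15.4%, beside 38.8% of all tested genes) and overlapped for the other 11. The ribosomal RNAs of the same genome, which are no subunits, were higher: MT-RNR2 had 9183, 9920 and 9788 CPM in control and 13510, 14770 and 13070 CPM in knockdown cells (log2 fold change 0.52, SE 0.049, edgeR adjusted p = 6.34e-07), and MT-RNR1 had a log2 fold change of 0.23 (SE 0.048, edgeR adjusted p = 0.00197). Cytochrome c, CYCS, had 312.8, 333.5 and 324.5 CPM in control and 273.4, 305.5 and 291.0 CPM in knockdown cells (log2 fold change -0.16, SE 0.054, edgeR adjusted p = 0.0405). Its call was lost without control replicate 2 or 3 or knockdown replicate 1 or 3, at edgeR adjusted p from 0.0658 to 0.178.

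Among factors that assemble the complexes, calls went in both directions. Of 58 tested assembly factors, 5 were lower and 2 higher, 12.1% in all beside 25.2% of all tested genes, with a median log2 fold change of -0.046. The lower ones were FOXRED1 (-0.34) and ACAD9 (-0.22), both assembly factors of complex I, the copper chaperone COX17 (-0.32) and the COX1 translation activator TACO1 (-0.28) of complex IV, and UQCC3 (-0.31) of complex III. The higher ones were the heme farnesyltransferase COX10 (0.23), which serves complex IV, and ECSIT (0.28), which serves complex I. FOXRED1 had 37.9, 35.4 and 33.7 CPM in control and 28.3, 27.8 and 28.5 CPM in knockdown cells (edgeR adjusted p = 0.00247), and was called in all 15 alternatives. ECSIT had 18.9, 21.0 and 19.8 CPM in control and 24.3, 24.3 and 23.8 CPM in knockdown cells (edgeR adjusted p = 0.0158), and was called in 12 of 15, not without control replicate 1 or 3 or knockdown replicate 1. COX17 was called in 14 (not without control replicate 3), TACO1 in 11 (not without control replicate 1 or 3 or knockdown replicate 2) and ACAD9 in 10 (not without control replicate 1 or knockdown replicate 1 or 2). COX10 was called in 7 and UQCC3 in 8, and when libraries were omitted in turn COX10 stayed called only without control replicate 1 and UQCC3 only without control replicate 3, with edgeR adjusted p as high as 0.223 and 0.191. Control and knockdown values were separate for each of these 7 factors, most narrowly for COX10, at 23.7 to 28.0 CPM in control and 28.5 to 31.4 CPM in knockdown cells. Of all 58 tested factors, 19 had separate groups (32.8%, beside 38.8% of all tested genes).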

How the data were processed

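Per the labels, total RNA was isolated with TRIzol and libraries were prepared with a NEBNext Ultra kit. The authors deposited raw counts per gene in 1 table, and the submitters' processing notes name CASAVA 1.8, fastp, HISAT2 2.0.5, featureCounts 1.5.0-p3, DESeq2 1.20.0 and the GRCh38 build without their roles. The labels name SW480 cells, whereas the study's text names HCT116 for its RNA sequencing, and the labels were followed.

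Counts were tested as deposited with edgeR 4.0.16 (R 4.3.3): filterByExpr, TMM factors and quasi-likelihood F-tests of 3 knockdown against 3 control libraries, with Benjamini-Hochberg adjustment over all 17574 tested genes and a threshold of 0.05. Of the members, 82 passed the filter and 7 did not (COX6A2, COX7A1, COX7B2, COX8C, ATP5MGL, ATP5MF-PTCD1 and NDUFC2-KCTD14). CPM values use the TMM factors. Alternatives used DESeq2 1.42.0, its RLE factors, library totals, other filters, a replicate block, limma 3.58.1 cyclic loess offsets, offsets for gene length and GC content, and leaving out each library. The procedure was tested on simulated data. No 2 libraries of a group agreed within sampling noise (chi-square per degree of freedom 3.26 to 10.9).

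Gene positions and shared exonic bases were taken from GENCODE 29, whose positions matched all 58735 genes. The members and gene lists were chosen with earlier results of these data known. Text names CNOT7, up to 4 called members per complex and direction, the main core subunits and paralog sets, the untested members, the chain genes outside the rule and called list genes. NDUFS3, NDUFB9, UQCRQ, ATP5F1E and the members named for level or position were added after their values were seen. For SCO2, which has 2 entries, the one with more counts was used.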

Additional observations from a re-analysis of the deposited data

How the results depend on the processing

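Over the 15 alternatives, 555 values were recomputed for 37 named genes: 475 kept direction and side of the threshold, 40 lost the call, 22 gained it and 18 turned direction, all of the last in 6 genes that were called neither way. UQCRC1 went to -0.0031 with DESeq2 and with RLE factors, -0.013 without the low-count filter, -0.048 and -0.037 with the length and the length and GC trends removed, and ranged from -0.030 to 0.037 on leaving out a library. With library totals alone ATP5MC2, COX7B and UQCRFS1 were at 0.011, 0.0041 and 0.013, and with the abundance trend removed ATP5F1A, ATP5MC2 and UQCRFS1 were at 0.0041, 0.017 and 0.013. On leaving out a library COX6A1 ranged from -0.235 to 0.088, being above 0 without control replicate 1 or knockdown replicate 2, and COX7B from -0.143 to 0.05, being above 0 without control replicate 3 or knockdown replicate 3. The counts of lower members moved more. Scaling by library totals alone moved the median of all tested genes from 0.0039 to 0.051 on the log2 scale. The median over members moved the same way, from -0.074 to -0.027. This setting gave 2 lower members, with 1, 0 and 0 in complexes I, IV and V. Medians were -0.018 in complex II and -0.055 in complex V. Without a filter on low counts 13 members were lower, with 2 each in complexes III, IV and V. Removing the trend with abundance gave 5, with 0 in complexes IV and V and medians of -0.018 in complex II and -0.075 in complex V. Removing the trend with gene length gave 2 in complex V and medians of -0.093 in complex II and -0.13 in complex V. DESeq2 gave 2 in complex V, with 12.0% of all tested genes lower. Removing trends with GC content and length, chosen after seeing the data, gave 4025 lower genes in all (22.9%) and 22 lower members, with 11, 1, 2, 2 and 6 in complexes I to V and a median of -0.13 in complex V.

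With the replicate number as a replicate block, 3306 genes (18.8%) and 23 members were lower, with 12, 3, 3 and 5 in complexes I, III, IV and V. Same-numbered libraries had correlated deviations of 0.17, 0.53 and 0.049, and control replicate 1 correlated more with knockdown replicate 3 (0.44). The labels do not say that numbers pair samples, so whether same-numbered libraries share more than a number is not known.

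Leaving out 1 library at a time gave 1367 to 2219 lower genes in all (7.56% to 12.4%), 1 to 19 lower members, 1 to 10 in complex I and 0 to 3 each in complexes III, IV and V, with medians from -0.11 to -0.076 in complex V and from -0.098 to -0.066 over members. The cause of these changes was not tested. With 3 libraries a group, the median standard error of 0.076 limits the detection of changes of the size of the members' median. COX6B2 was the exception, being called under every alternative.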

Other observations

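The tricarboxylic acid cycle, which feeds NADH and succinate to the respiratory chain, was measured with 18 genes, pyruvate dehydrogenase subunits included. Of these, 3 were lower in knockdown cells (16.7%, beside 11.9% of all tested genes), and the median log2 fold change was -0.045. OGDH, the first enzyme of the oxoglutarate dehydrogenase complex, had 262.7, 255.2 and 262.1 CPM in control and 220.6, 221.2 and 225.7 CPM in knockdown cells (log2 fold change -0.22, SE 0.049, edgeR adjusted p = 0.00282) and was called under all 15 alternatives. Fumarase, FH, had 93.5, 107.3 and 94.3 CPM in control and 81.4, 87.7 and 80.8 CPM in knockdown cells (log2 fold change -0.24, SE 0.065, edgeR adjusted p = 0.0123), and its call was lost without control replicate 2 or knockdown replicate 1 (edgeR adjusted p at most 0.0584). DLAT, the acetyltransferase of pyruvate dehydrogenase, had 121.4, 132.0 and 131.1 CPM in control and 107.5, 116.2 and 114.2 CPM in knockdown cells (log2 fold change -0.19, SE 0.058, edgeR adjusted p = 0.025) and was called under 10 of 15 alternatives, not without control replicate 2 or 3 or knockdown replicate 1 (edgeR adjusted p as high as 0.117). All control values of these 3 genes were above all knockdown values.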
